A study of Mus musculus with 16 samples.

Results

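The ileum of Neurog3 mutant mice was compared with the duodenum of the same 4 mice, NFVCT27, NFVCT38, NFVCT153 and NFVCT190. The comparison took every library of a mutant animal, which gave 8 of the 16 RNA sequencing libraries of the study, 4 from ileum and 4 from duodenum, paired by animal. All mice were adult males of the C57BL/6N background fed standard chow, and tissue was taken 18 weeks after tamoxifen. The mutants were Neurog3f/f; Villin-CreERT2. In these mice both Neurog3 alleles are flanked by recombination sites, and the Villin promoter places a tamoxifen-dependent Cre recombinase in the intestinal epithelium. The 4 controls, NF17, NF29, NF32 and NF152, were Neurog3f/f without the Cre transgene, so both genotypes carry the floxed alleles, and only the mutants carry Cre. Because Villin drives the recombinase in epithelium, neurons and pancreatic islet cells are not its targets, and any hormone or granin RNA they make can remain in the tissue. The control libraries serve here only to set the regional difference of each gene beside that of the mutants.

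Neurog3 is the transcription factor that commits intestinal progenitors to the enteroendocrine lineage, the scattered hormone cells that sense the meal. The small intestine is also patterned along its length. The duodenum receives acid, bile and pancreatic enzymes, is patterned by factors such as Pdx1 and Gata4, and takes up iron, calcium, folate, sugars and fat. The ileum recovers conjugated bile acids and vitamin B12, meets a denser microbial community and carries more Paneth and goblet cells. The question set by the design is which of these regional differences are measured in an intestine whose epithelium has lost Neurog3.

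Neurog3 had 0 counts in each of the 8 mutant libraries. A floor of 3 counts, taken here as the limit that a count of 0 allows, equals 0.351 CPM, a count scaled to library depth, in the ileum of NFVCT27, the mutant library with the smallest depth after TMM scaling. The control libraries held 8 to 37 Neurog3 counts each. The mutant duodenal libraries held 10096736 to 35076714 counts assigned to genes and the mutant ileal libraries 8213889 to 18093452. Vil1, Cdh1 and Epcam, which mark intestinal epithelium, were abundant in every mutant library and did not pass the test between regions. Vil1 lay between 1510.5 and 3205 CPM (adjusted p = 0.904), Cdh1 between 674 and 906 CPM (adjusted p = 0.874) and Epcam between 972 and 1936 CPM (adjusted p = 0.266). The duodenal pieces also carried pancreatic RNA. A list of 43 acinar genes took 15.1%, 2.68%, 2.9% and 23.4% of the duodenal counts of NFVCT27, NFVCT38, NFVCT153 and NFVCT190, against 0.718%, 0.199%, 0.147% and 0.705% of their ileal counts. In the controls the list took 8.68% to 18.8% of duodenal and 0.229% to 1.11% of ileal counts. Throughout, values of single libraries are CPM on one scale for all 16 libraries and are given in the order NFVCT27, NFVCT38, NFVCT153, NFVCT190. A log2 difference is ileum minus duodenum, so positive values are higher in the ileum, and a gene is called where its adjusted p is under 0.05 by edgeR's quasi-likelihood test with the animal as a block and Benjamini-Hochberg adjustment over all genes tested.

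Of 14950 genes tested in the mutants, 4839 (32.4%) were called, 2258 (15.1%) higher in the ileum and 2581 (17.3%) higher in the duodenum. Without NFVCT38 2886 genes were called and without NFVCT27 3096. The median log2 difference over all tested genes was -0.012. The libraries of the regions did not overlap at 4887 genes (32.7% of those tested). Among the called genes, 802 had a log2 difference above 1 and 883 one below -1. The plot of every tested gene shows that the largest differences in the ileum's favour reached further from 0 than those in the duodenum's favour. Groups of genes are described below by how many of their tested members were called, and those counts are to be read against 15.1% called higher in the ileum and 17.3% called higher in the duodenum among all genes. In bulk tissue, more cells of a kind and more RNA per cell cannot be told apart.

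**Figure D1:**
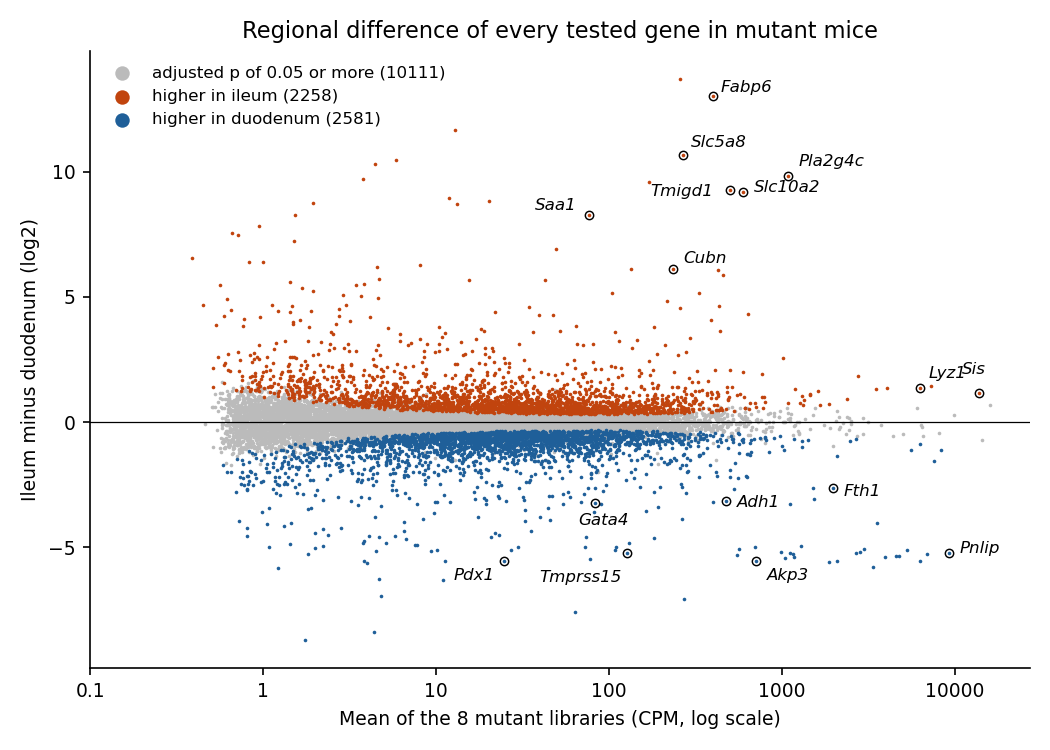
Each point is a gene tested between the 4 ileal and the 4 duodenal libraries of mutant mice, with the mean level of the 8 libraries in CPM on a log axis and the log2 difference, ileum minus duodenum, on the vertical axis. Colours mark the 2258 genes called higher in the ileum and the 2581 called higher in the duodenum, circles the genes named, and the values of genes with almost no counts in 1 region depend on the prior count of the fit.

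The genes with the largest differences in the ileum's favour included several transporters, a receptor and a phospholipase, all with duodenal levels close to 0. Slc6a14, an amino acid transporter with broad specificity, had 2 counts in the 4 duodenal libraries together and 27764 in the 4 ileal ones, a ratio of 19385 (95% exact binomial interval 5366 to 160075, counting error only). P2ry4, a nucleotide receptor, had 0 duodenal counts and 1362 ileal counts and was at least 634-fold higher in the ileum, measured against 3 counts over the group. Slc5a8, which carries short-chain fatty acids and lactate with sodium, was at 0.588, 0.35, 0.261 and 0.11 CPM in the duodenum and 516, 545, 577 and 502 CPM in the ileum (log2 difference 10.68 ± 0.28 SE, adjusted p = 2.54e-07). All 4 ileal libraries lay in a narrow range far above every duodenal one. Slc34a2, a phosphate transporter, followed with 9.61 ± 0.48 (SE, adjusted p = 1.48e-05), and Tmigd1, an adhesion molecule of the brush border, with 9.27 ± 0.37 (SE, adjusted p = 1.16e-06). Pla2g4c, a cytosolic phospholipase A2, rose from 2.44, 0.991, 4.46 and 1.43 CPM to 3393, 2354, 2357 and 606 CPM (9.83 ± 0.47 SE, adjusted p = 4.07e-06). NFVCT190 had the lowest ileal value, and it still lay far above every duodenal one. Osr2, a transcription factor, had 3 duodenal and 1262 ileal counts, a ratio of 587 (201 to 2852). Gsdmc3, of the gasdermin C family, had a log2 difference of 8.83 ± 0.41 (SE, adjusted p = 2.35e-06), and its close relatives in sequence can share reads with it.

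The genes with large differences in the duodenum's favour included digestive and ion-handling genes and genes whose duodenal values were highest where acinar counts were. Akp3, an intestinal alkaline phosphatase, was at 2549.6, 1369, 702 and 939 CPM in the duodenum and 59.9, 34, 12.8 and 18.5 CPM in the ileum (log2 difference -5.56 ± 0.18 SE, adjusted p = 5.08e-07). The regions were far apart in each of the 4 animals. Otop3, a proton channel, differed by -5.45 ± 0.22 (SE, adjusted p = 8.97e-07), and Sult6b2, a sulfotransferase, by -5.06 ± 0.20 (SE, adjusted p = 8.53e-07). Tmprss15 encodes enteropeptidase, the brush border protease that activates trypsinogen in the duodenum. It was at 413, 234, 215 and 122 CPM in the duodenum and 12.9, 9.37, 4.05 and 2.62 CPM in the ileum (-5.21 ± 0.21 SE, adjusted p = 8.97e-07). Reg2, Aqp12 and Itih4 had log2 differences of -5.25, -5.10 and -5.10. Their duodenal values were highest in NFVCT190 and NFVCT27, the animals with most acinar counts, with 3019, 524, 449 and 5000.3 CPM for Reg2 and 30.8, 3.44, 3.51 and 40.7 CPM for Aqp12. The part of pancreatic RNA in these 3 genes was not tested. Mir6236, annotated as a microRNA precursor, had 716, 352, 79 and 999 CPM in the duodenum and 5.5, 1.45, 7.42 and 0.911 CPM in the ileum (-7.07 ± 1.09 SE, adjusted p = 0.00319). Of the genes in this paragraph Mir6236 had the largest log2 difference, and its duodenal values too were highest in NFVCT190 and NFVCT27. The part of pancreatic RNA in Mir6236 was not tested either. Its call was lost without NFVCT27 and NFVCT190 together (adjusted p = 0.252).

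Transcription factors of proximal identity were higher in the duodenum at each of the 4 tested members of their list of 6. Pdx1, which patterns the duodenum and pancreas, was at 49.5, 45.2, 35.8 and 62.7 CPM in the duodenum and 0.936, 1.26, 0.674 and 1.23 CPM in the ileum (log2 difference -5.55 ± 0.17 SE, adjusted p = 5.08e-07). Gata4, which holds the proximal absorptive programme, was at 145, 162, 131 and 162 CPM and 13.2, 20.2, 17.4 and 15.4 CPM (-3.21 ± 0.15 SE, adjusted p = 1.74e-06). Both genes were high in every duodenal and low in every ileal library. The duodenal values of Pdx1, which the pancreas makes too, were highest in NFVCT190 and NFVCT27, the libraries with most acinar counts, and those of Gata4 were not. The part of pancreatic RNA in Pdx1 was not tested. Onecut2 (-3.61 ± 0.26 SE, adjusted p = 4.78e-05) and Creb3l3 (-1.26 ± 0.17 SE, adjusted p = 0.000781), the latter a regulator of lipid genes, were also higher in the duodenum, and Onecut3 and Nkx6-3 were too low to be tested. Of 6 distal factors, 4 were called higher in the ileum and 1 lower. Nr1h4 encodes FXR, the nuclear receptor for bile acids, and was at 61.8, 67.7, 38.2 and 35.1 CPM in the duodenum and 224, 198, 147 and 178 CPM in the ileum (1.89 ± 0.14 SE, adjusted p = 3.09e-05). Maf, a factor of mature absorptive cells, differed by 0.72 ± 0.12 (SE, adjusted p = 0.00196), and Pou2af1, a coactivator also used by B cells, by -0.85 ± 0.13 (SE, adjusted p = 0.00122). The caudal factors differed little: Cdx1 by 0.48 ± 0.12 (SE, adjusted p = 0.0154), a call lost without NFVCT27 (adjusted p = 0.0935) or without NFVCT38 (adjusted p = 0.0525), and Cdx2 by 0.41 ± 0.16 (SE, adjusted p = 0.0773).

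Factors used along the whole intestine were called at 4 of 13 tested members, with a median log2 difference of -0.16. Gata6, a relative of Gata4 that is expressed along the whole tract, was at 99.5 to 128 CPM in the duodenum and 54.3 to 59.7 CPM in the ileum (-0.91 ± 0.12 SE, adjusted p = 0.000574). Atoh1, the switch to the secretory fate, was at 21.4, 18.2, 21.8 and 16.4 CPM in the duodenum and 37.1, 37.9, 41.2 and 41.4 CPM in the ileum (1 ± 0.13 SE, adjusted p = 0.000576), with each ileal library above each duodenal one. Hnf4a, which holds enterocyte identity, was not called (0.36 ± 0.15 SE, adjusted p = 0.106). Its relative Hnf4g differed by -0.60 ± 0.13 (SE, adjusted p = 0.00877), a call lost without NFVCT27 (adjusted p = 0.0607). The list had 2 calls in each direction. The count called higher in the ileum was 1 without NFVCT27, NFVCT38 or NFVCT153, and the count called higher in the duodenum was 1 without NFVCT27.

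**Figure D2:**
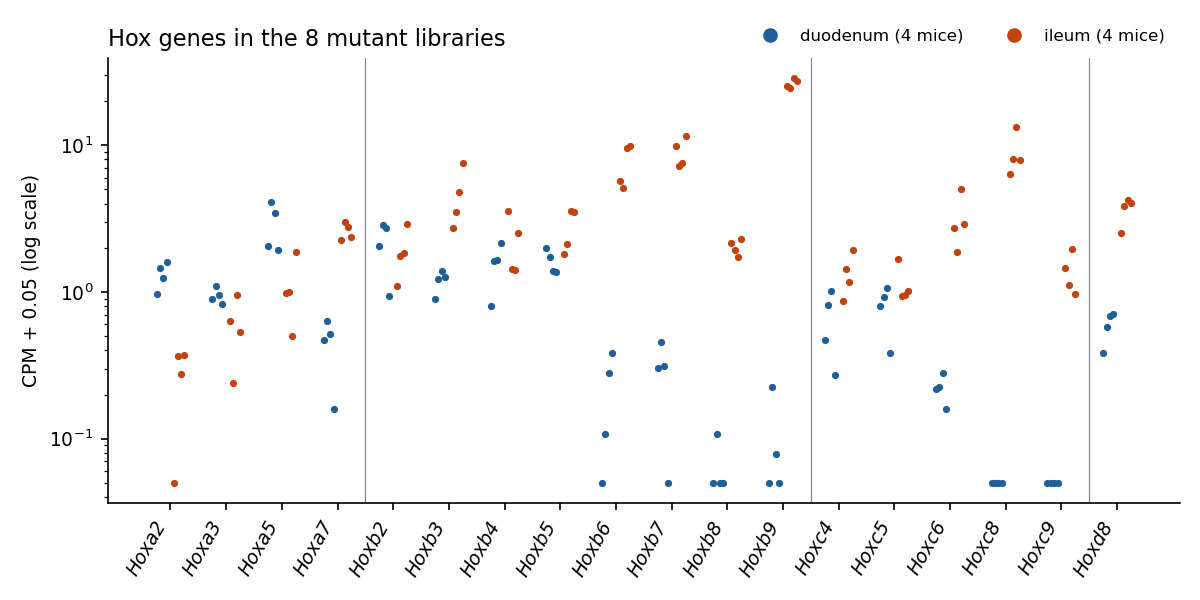
CPM plus 0.05 on a log axis of the 18 tested Hox genes in the 8 mutant libraries, 4 duodenal and 4 ileal, with 1 point per library and lines between the 4 clusters. Points at the bottom are libraries with 0 counts, and Hoxb6 to Hoxb9, Hoxc6 to Hoxc9 and Hoxd8 lie higher in the ileum.

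Hox genes, which set position along the body axis and in the gut are active in both mesenchyme and epithelium, were mostly higher in the ileum where they could be tested. Of 39 genes, 18 were tested, 10 were called higher in the ileum and 2 higher in the duodenum, and the median log2 difference was 2.25. Some of them, such as Hoxb9, Hoxc8 and Hoxc9, passed the filter through their ileal libraries alone, so the filter partly sets this share. With no filter on low counts, 11 of 30 were called higher in the ileum and 3 higher in the duodenum (median 1.87). Hoxb9 was at 0, 0.175, 0.029 and 0 CPM in the duodenum and 25.2, 24.3, 28.4 and 27.2 CPM in the ileum (8.70 ± 0.38 SE, adjusted p = 1.36e-06). Hoxb6 followed with 5.54 ± 0.37 (SE, adjusted p = 1.48e-05) and Hoxb7 with 4.98 ± 0.38 (SE, adjusted p = 3.34e-05). Hoxc8 had 0 duodenal and 445 ileal counts, at least 207-fold higher in the ileum, and Hoxc9 had 0 and 63 counts, at least 29.3-fold higher. Hoxa7 (2.62 ± 0.37 SE, adjusted p = 0.000921), Hoxc6 (4.06 ± 0.38 SE, adjusted p = 0.000114) and Hoxd8 (2.71 ± 0.28 SE, adjusted p = 0.00018) were higher in the ileum as well. The 2 genes called the other way lie towards the anterior end of their cluster. Hoxa2 was at 0.924, 1.4, 1.19 and 1.54 CPM in the duodenum and 0, 0.314, 0.225 and 0.321 CPM in the ileum (-2.48 ± 0.50 SE, adjusted p = 0.00528). Hoxa5 differed by -1.46 ± 0.43 (SE, adjusted p = 0.0281), a call lost without any one of NFVCT27, NFVCT38 and NFVCT153 (adjusted p = 0.0726, 0.15 and 0.0822), and Hoxa2 was called in the fits without NFVCT27, NFVCT153 or NFVCT190 and too low to be tested without NFVCT38.

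Bile acid handling differed between the regions at all 10 tested members of its list of 13, 7 higher in the ileum and 3 higher in the duodenum. Fabp6 and Fgf15, with 6 and 0 duodenal counts, and Nr0b2, with 0 ileal counts, passed the filter through the other region. The filter thus partly sets this share. With no filter on low counts, 7 of 13 were called higher in the ileum and 3 higher in the duodenum (median 1.87). Conjugated bile acids enter ileal enterocytes through the apical sodium transporter Slc10a2, are bound inside by Fabp6, and leave through the basolateral pair Slc51a and Slc51b. Bile acids bound to FXR switch on Fgf15, the hormone by which the ileum restrains bile acid synthesis in the liver. Fabp6 was at 0, 0.117, 0.0869 and 0.11 CPM in the duodenum and 1310.1, 950.4, 584 and 338 CPM in the ileum (log2 difference 13.01 ± 0.35 SE, adjusted p = 2.54e-07). Slc10a2 was at 3.28, 2.51, 1.59 and 0.662 CPM and 1276, 1281, 919 and 1301 CPM (9.20 ± 0.35 SE, adjusted p = 8.53e-07). For both genes every ileal library lay far above every duodenal one. Slc51a was at 178, 131, 138 and 67 CPM in the duodenum and 557, 548, 444 and 511 CPM in the ileum (2.05 ± 0.21 SE, adjusted p = 0.000208), and Slc51b differed by 2.17 ± 0.24 (SE, adjusted p = 0.000368). Fgf15 had 0 counts in the 4 duodenal libraries and 20.7, 3.84, 4.83 and 0.911 CPM in the ileal ones, at least 139-fold higher over the group. Its ileal level ran over a wide range, and it was not called without the animal block (adjusted p = 0.0566). Baat, which joins bile acids to taurine, differed by 2.68 ± 0.42 (SE, adjusted p = 0.00157). The genes higher in the duodenum were the export pumps Abcc2 (-1.72 ± 0.17 SE, adjusted p = 0.000159) and Abcc3 (-1.04 ± 0.18 SE, adjusted p = 0.00236) and Nr0b2, the repressor SHP, another target of FXR. Nr0b2 had 6.22, 4.02, 1.62 and 2.1 CPM in the duodenum and 0 counts in the ileum, and was at least 52-fold higher in the duodenum.

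The stretches before the start of a pair of ileal genes, Fabp6 and Slc10a2, and of a pair of duodenal genes, Tmprss15 and Adh1, are shown because these genes are among those that separate the regions without overlap in the data. Each holds the 250 bases before the gene's start, written 5′ to 3′ on the gene's strand, from RefSeq on GRCm38.p6. Adh1, an alcohol and retinol dehydrogenase, was at 1007, 811, 843 and 751 CPM in the duodenum and 80.4, 145, 72.3 and 108 CPM in the ileum (-3.14 ± 0.22 SE, adjusted p = 2.18e-05). Capitals mark letters of the kind bound by GATA factors, searched on both strands as AGATAA or with the first letter as T (the word TGATAA), and also with G as the last letter of either word (AGATAG for the former, TGATAG for the latter). They also mark letters of the kind bound by CDX factors, searched on both strands as TTTATG. A match on the other strand is seen here as its reverse complement.
Fabp6 (chr11:43601563-43601812, minus strand): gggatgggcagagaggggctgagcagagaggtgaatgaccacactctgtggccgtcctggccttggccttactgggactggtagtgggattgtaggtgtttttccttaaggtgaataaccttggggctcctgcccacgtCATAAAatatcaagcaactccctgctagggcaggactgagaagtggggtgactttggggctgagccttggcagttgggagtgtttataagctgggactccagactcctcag
Slc10a2 (chr8:5105288-5105537, minus strand): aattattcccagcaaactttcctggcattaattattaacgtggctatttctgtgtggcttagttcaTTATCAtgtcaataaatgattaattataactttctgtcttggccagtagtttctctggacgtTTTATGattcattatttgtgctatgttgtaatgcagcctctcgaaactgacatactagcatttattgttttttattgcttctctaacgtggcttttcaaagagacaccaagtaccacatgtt
Tmprss15 (chr16:79091098-79091347, minus strand): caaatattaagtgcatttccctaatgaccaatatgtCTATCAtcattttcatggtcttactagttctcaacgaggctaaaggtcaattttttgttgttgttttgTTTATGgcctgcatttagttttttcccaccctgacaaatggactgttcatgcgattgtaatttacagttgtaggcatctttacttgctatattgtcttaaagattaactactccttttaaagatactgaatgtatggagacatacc
Adh1 (chr3:138277335-138277584, plus strand): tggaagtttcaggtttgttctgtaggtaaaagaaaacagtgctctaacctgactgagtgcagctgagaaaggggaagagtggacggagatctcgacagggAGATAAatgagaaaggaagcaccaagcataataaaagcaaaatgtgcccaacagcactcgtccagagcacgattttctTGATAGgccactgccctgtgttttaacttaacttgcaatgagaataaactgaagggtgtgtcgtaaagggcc
Fabp6 held 1 CDX-type match, Slc10a2 and Tmprss15 1 of each kind, and Adh1 2 GATA-type matches and no CDX-type match.

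Of the 14950 tested genes, 10925 had such a window, and 21.1% of them held a GATA-type match. The share was 32.5% of 545 windows among genes called higher in the duodenum by more than 1 on the log2 scale and 27.3% of 554 among those called higher in the ileum by more than 1. Among differences above 3, the pancreatic lists left out, it was 42.4% (28 of 66) for the duodenum and 29.6% (24 of 81) for the ileum. CDX-type matches were in 7.58% of tested windows, 9.17% and 9.03% of those past 1, and 12.1% (8 of 66) and 16% (13 of 81) of those past 3. Over all 27025 windows of the table, tested or not, the shares were 29.7% and 12.4%, so untested genes held more of both. These are descriptions of letters in a fixed window, with no test, and a match is not a binding site.

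**Figure D3:**
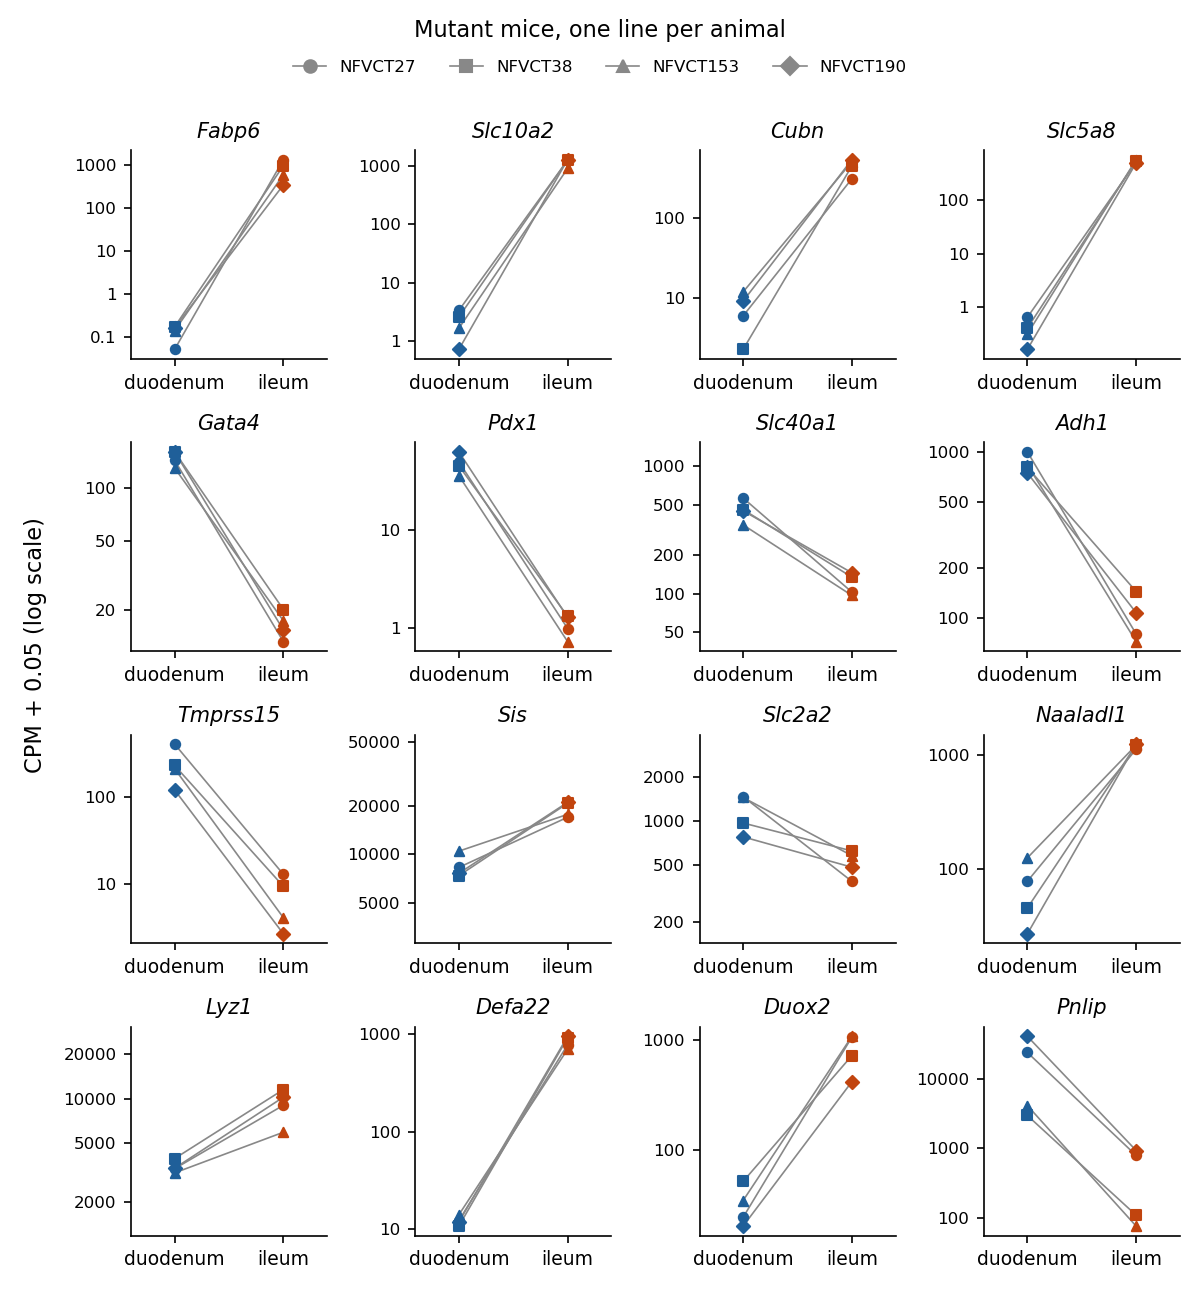
CPM plus 0.05 on log axes of 16 genes in the duodenum and ileum of the 4 mutant mice, with 1 line and 1 symbol per animal. Every line of Fabp6, Slc10a2, Cubn, Slc5a8, Sis, Naaladl1, Lyz1, Defa22 and Duox2 rises to the ileum and every line of Gata4, Pdx1, Slc40a1, Adh1, Tmprss15, Slc2a2 and Pnlip falls.

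Iron uptake leaned to the duodenum, where dietary iron is absorbed: of 15 tested genes 8 were called higher there and 1 higher in the ileum (median log2 difference -0.91). Slc11a2, the apical importer of ferrous iron, was at 114, 144, 154 and 125 CPM in the duodenum and 30.4, 33.6, 31.9 and 40.7 CPM in the ileum (-2 ± 0.13 SE, adjusted p = 1.48e-05). Slc40a1, which encodes the exporter ferroportin, was at 563, 457, 347 and 447 CPM and 103, 135, 97 and 146 CPM (-1.94 ± 0.16 SE, adjusted p = 5.67e-05). Fth1, the heavy chain of the iron store ferritin, was at 4913, 3210.1, 2946 and 2565 CPM and 496, 524, 572 and 569 CPM (-2.64 ± 0.23 SE, adjusted p = 6.43e-05), and in none of the 3 genes did the regions overlap. Slc39a14, a zinc and iron importer, differed by -1.58 ± 0.13 (SE, adjusted p = 5.27e-05). The gene called higher in the ileum was Tfrc, the transferrin receptor, at 113, 147, 204 and 179 CPM in the duodenum and 583, 593, 375 and 432 CPM in the ileum (1.61 ± 0.24 SE, adjusted p = 0.00145). Heph, the ferroxidase that works with ferroportin, was not called (0.14 ± 0.18 SE, adjusted p = 0.584), nor was Cybrd1, the duodenal ferric reductase (-0.10 ± 0.26 SE, adjusted p = 0.796).

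Of the ileal receptor for vitamin B12, Cubn was called higher in the ileum, and Amn leaned the same way without a call. Cubn, the part of the ileal receptor that binds intrinsic factor with B12, was at 5.8, 2.16, 11.7 and 8.94 CPM in the duodenum and 316, 458, 518 and 551 CPM in the ileum (6.12 ± 0.38 SE, adjusted p = 3.22e-05). Amn, the partner that anchors it in the membrane, was not called, at 31.2, 25.2, 43.4 and 18.1 CPM and 39.8, 43.3, 41.7 and 53 CPM (0.62 ± 0.23 SE, adjusted p = 0.0677). Of the other 5 tested members of the B12 list, Cd320, the cellular receptor for B12 on transcobalamin, was higher in the duodenum (-1.34 ± 0.20 SE, adjusted p = 0.00137), as was Mmachc (-0.58 ± 0.14 SE, adjusted p = 0.0134), a call lost without NFVCT27 (adjusted p = 0.0564) or NFVCT38 (adjusted p = 0.0823). Tcn2, which encodes transcobalamin, was not called (-0.47 ± 0.20 SE, adjusted p = 0.0959). Without NFVCT153 Amn was called higher in the ileum besides Cubn, which made 2.

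Other vitamins and retinoids leaned to the duodenum, with 13 of 24 tested genes called higher there and 4 higher in the ileum (median -0.72). Slc19a3, a thiamine transporter, was at 60.6, 45.8, 36.1 and 24.8 CPM in the duodenum and 1.99, 3.02, 1.46 and 1.23 CPM in the ileum (-4.41 ± 0.19 SE, adjusted p = 1.36e-06). Slc46a1, the proton-coupled folate transporter, was at 532, 288, 412 and 180.5 CPM and 27.5, 33.1, 28.7 and 36.5 CPM (-3.40 ± 0.31 SE, adjusted p = 0.000198), and Slc19a1, the reduced folate carrier, differed by -1.68 ± 0.14 (SE, adjusted p = 5.43e-05). Both folate carriers were higher in the duodenum of all 4 animals. Rbp2, which binds retinol inside enterocytes, was at 1338, 1323, 882 and 517 CPM and 214, 269, 185 and 209 CPM (-2.15 ± 0.22 SE, adjusted p = 0.000174), and Scarb1, a receptor for carotenoids and lipoproteins, differed by -2.30 ± 0.18 (SE, adjusted p = 3.67e-05). The ascorbate transporter Slc23a2 differed by -1.63 ± 0.15 (SE, adjusted p = 0.000115). Toward the ileum, the riboflavin transporter Slc52a3 was at 51.5, 44.8, 53 and 28.2 CPM in the duodenum and 129.8, 131, 135 and 132 CPM in the ileum (1.59 ± 0.16 SE, adjusted p = 0.000154), with every ileal library above every duodenal one. Bco1, which cleaves carotenoids to retinal, differed by 2.67 ± 0.37 (SE, adjusted p = 0.00153).

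Calcium and phosphate genes gave a mixed picture, with 2 of 12 tested called higher in the ileum and 3 higher in the duodenum. Vdr, the vitamin D receptor, was at 565, 489, 365 and 498 CPM in the duodenum and 169, 174, 219.9 and 215 CPM in the ileum (-1.32 ± 0.18 SE, adjusted p = 0.000781). S100g encodes the calcium carrier calbindin-D9k and was at 52.6, 58, 4.2 and 45.7 CPM in the duodenum and 3.74, 4.21, 5.17 and 9.05 CPM in the ileum (-2.56 ± 0.65 SE, adjusted p = 0.0233). One duodenal library, from NFVCT153, lay among the ileal values. The S100g call was lost without any one of NFVCT27, NFVCT38 and NFVCT190 (adjusted p = 0.0714, 0.0942 and 0.144). Slc8a1, a sodium and calcium exchanger, was higher in the ileum (1.07 ± 0.12 SE, adjusted p = 0.000296), as was the phosphate transporter Slc34a2 named above. Without NFVCT27, and also without NFVCT38, 1 gene was called higher in the duodenum.

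Sugar digestion and uptake were called higher in the duodenum at 7 of 20 tested genes and higher in the ileum at 2 (median -0.52). In the controls 15 were called higher in the duodenum and 0 higher in the ileum (median -1.44), and 1 list member, Mlxipl, was called in the test of the difference between the genotypes. Slc2a2, which encodes the basolateral glucose transporter GLUT2, was at 1473, 968, 1450.5 and 777 CPM in the duodenum and 383, 621, 576 and 479.8 CPM in the ileum (-1.17 ± 0.23 SE, adjusted p = 0.00478). Slc2a5, the fructose transporter GLUT5, was at 416, 352, 425 and 171 CPM and 103, 110, 91.4 and 117 CPM (-1.64 ± 0.25 SE, adjusted p = 0.00182). Khk, the kinase that starts fructose breakdown, differed by -1.52 ± 0.23 (SE, adjusted p = 0.00152), Tkfc, which acts after it, by -1.02 ± 0.14 (SE, adjusted p = 0.000907), and Slc2a7, another sugar transporter of the family, by -2 ± 0.25 (SE, adjusted p = 0.000617). All 5 genes were lower in the ileum of every animal. Sis, sucrase-isomaltase, went the other way, from 8273, 7352, 10439 and 7602 CPM in the duodenum to 16975, 20732, 17687 and 21009 CPM in the ileum (1.17 ± 0.23 SE, adjusted p = 0.00529), and its call was lost without NFVCT38 (adjusted p = 0.0554). In the controls Sis was at 7060.1 ± 786 CPM in the duodenum and 4967 ± 967 CPM in the ileum (SD, n = 4), a log2 difference of -0.52 ± 0.21 (SE, adjusted p = 0.0764). The test of the difference between the genotypes gave 1.71 ± 0.31 (SE, adjusted p = 0.0836) for Sis. Mgam, maltase-glucoamylase, was not called in the mutants (0.28 ± 0.21 SE, adjusted p = 0.352), nor were Lct, lactase (-0.42 ± 0.62 SE, adjusted p = 0.635), and Slc5a1, the sodium and glucose transporter SGLT1 (-0.47 ± 0.26 SE, adjusted p = 0.204). The count called higher in the ileum was 0 without NFVCT38 and 1 without NFVCT190.

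Peptide digestion and amino acid uptake were called higher in the ileum at 10 of 28 tested genes and higher in the duodenum at 6 (median 0.4). Mep1a, a brush border metalloprotease, was at 45, 44.7, 70 and 21.8 CPM in the duodenum and 597, 759, 757 and 797 CPM in the ileum (4.07 ± 0.28 SE, adjusted p = 2.69e-05). Naaladl1, an aminodipeptidase of the brush border, was at 77.9, 45.4, 125 and 26.9 CPM and 1126, 1224, 1222 and 1248 CPM (4.32 ± 0.37 SE, adjusted p = 0.000146). The 4 ileal values of Naaladl1 were close together while the duodenal ones ran over a wider range. Slc1a1, a glutamate and aspartate transporter, differed by 2.95 ± 0.21 (SE, adjusted p = 2.16e-05) and Xpnpep2, an aminopeptidase for proline bonds, by 3.28 ± 0.24 (SE, adjusted p = 3.15e-05). Enpep and Anpep, other aminopeptidases, differed by 0.90 ± 0.21 (SE, adjusted p = 0.0116) and 0.73 ± 0.18 (SE, adjusted p = 0.0134), both calls lost without NFVCT38 (adjusted p = 0.0712 and 0.0996). The peptide transporter Slc15a1 was not called (0.30 ± 0.31 SE, adjusted p = 0.489). Higher in the duodenum, besides Tmprss15, was Slc7a8, a basolateral exchanger of neutral amino acids (-1.76 ± 0.28 SE, adjusted p = 0.00232). The count called higher in the duodenum was 3 without NFVCT27 and 3 without NFVCT153.

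Fat handling leaned to the duodenum, at 11 of 33 tested genes against 3 called higher in the ileum (median -0.38). The fatty acid binding proteins were split among the regions. Fabp1, the form shared with liver, was at 909.8, 1279, 914 and 516 CPM in the duodenum and 87.3, 351, 173 and 213 CPM in the ileum (-2.24 ± 0.32 SE, adjusted p = 0.00135). Fabp2, the intestinal form, was not called, at 579.5, 495, 529 and 380.4 CPM and 709.5, 785, 502 and 1058 CPM (0.56 ± 0.23 SE, adjusted p = 0.0962), and Fabp6, the bile acid form, belonged to the ileum. Mttp, which loads lipid on apolipoprotein B, was at 3711, 3619, 2699.6 and 1982 CPM and 1054, 1519, 1159 and 996 CPM (-1.34 ± 0.19 SE, adjusted p = 0.00103), and Slc27a2, a fatty acid transporter, differed by -1.92 ± 0.22 (SE, adjusted p = 0.000398). The apolipoproteins Apob (0.55 ± 0.25 SE, adjusted p = 0.122) and Apoa1 (-0.48 ± 0.35 SE, adjusted p = 0.32) were not called. Acsl3, an acyl-CoA synthetase, was higher in the ileum (0.86 ± 0.11 SE, adjusted p = 0.000606). The count called higher in the duodenum was 18 without NFVCT190, and the count called higher in the ileum was 1 without NFVCT38.

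Fatty acid oxidation was called higher in the duodenum at 12 of 24 tested genes and higher in the ileum at 2 (median -0.54). Acaa2 and Ehhadh, enzymes of mitochondrial and peroxisomal oxidation, differed by -1.55 ± 0.15 (SE, adjusted p = 0.000115) and -1.5 ± 0.16 (SE, adjusted p = 0.0002), and in both the regions did not overlap. Acot1, a thioesterase of fatty acyl-CoA, was at 17.4, 63.7, 3.39 and 8.38 CPM in the duodenum and 4.56, 12.9, 1.35 and 3.16 CPM in the ileum (-1.86 ± 0.20 SE, adjusted p = 0.000212). The animals differed from each other more than the regions did, and Acot1 was not called without the animal block (adjusted p = 0.194). With NFVCT27, NFVCT38 or NFVCT190 left out, 1 gene was called higher in the ileum.

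Cholesterol synthesis leaned to the ileum, at 14 of 25 tested genes against 1 higher in the duodenum (median 0.47). The enzymes are switched on together by SREBP2 when cell sterol is low. Sqle, which makes squalene epoxide, was at 60.6, 72.5, 124 and 80.5 CPM in the duodenum and 196, 187, 299 and 202 CPM in the ileum (1.39 ± 0.12 SE, adjusted p = 7.04e-05). Fdft1 (1.23 ± 0.13 SE, adjusted p = 0.000243), Cyp51 (1.04 ± 0.13 SE, adjusted p = 0.000499) and Hmgcs1 (1.12 ± 0.16 SE, adjusted p = 0.00085) were also higher in the ileum. Dhcr7, the last enzyme of one branch, was the gene called higher in the duodenum (-0.93 ± 0.14 SE, adjusted p = 0.00121). The count called higher in the ileum was 9 without NFVCT38, and 2 were called higher in the duodenum without NFVCT190.

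Amino acid metabolism of the citrulline and proline routes was called higher in the duodenum at 10 of 19 tested genes and higher in the ileum at 1 (median -0.42). Arg2, a mitochondrial arginase, was at 601, 431, 458 and 445 CPM in the duodenum and 52.3, 91.6, 53.3 and 86.6 CPM in the ileum (-2.82 ± 0.23 SE, adjusted p = 4.89e-05). Aldh4a1, of proline breakdown, differed by -1.73 ± 0.22 (SE, adjusted p = 0.000645), and Slc25a15, the mitochondrial ornithine carrier, by -0.76 ± 0.13 (SE, adjusted p = 0.00208). Without NFVCT153 2 members were called higher in the ileum.

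Xenobiotic metabolism leaned to the duodenum at 23 of 41 tested genes, against 4 higher in the ileum (median -0.9). The glutathione transferases Gstm3 and Gsta4 had the smallest p of the list. Gsta4 was at 392, 368, 244 and 208 CPM in the duodenum and 28.6, 31.6, 20.2 and 21.8 CPM in the ileum (-3.56 ± 0.14 SE, adjusted p = 8.53e-07), and Gstm3 differed by -3.90 ± 0.13 (SE, adjusted p = 6.37e-07). Nr1i3, which encodes the xenobiotic receptor CAR, was at 50.5, 42.2, 47.3 and 42.7 CPM and 3.16, 7.36, 4.83 and 5.41 CPM (-3.15 ± 0.22 SE, adjusted p = 2.1e-05), and Cyp2c65, a cytochrome P450, differed by -2.29 ± 0.20 (SE, adjusted p = 6.9e-05). In each of these genes every duodenal library was above every ileal one. The carboxylesterases were split. Ces1f (-2.58 ± 0.12 SE, adjusted p = 2.25e-06) and Ces1e (-2.51 ± 0.14 SE, adjusted p = 4.35e-06) were higher in the duodenum, and Ces2e was not called (0.00 ± 0.26 SE, adjusted p = 0.991), with the reservation that the genes of this family resemble each other. Toward the ileum, the efflux pump Abcg2 was at 195, 143, 188 and 80.5 CPM in the duodenum and 321, 376, 295 and 281 CPM in the ileum (1.11 ± 0.20 SE, adjusted p = 0.00291).

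Ion and water transport showed no common direction, with 11 of 32 tested genes called higher in the ileum and 7 higher in the duodenum (median -0.01). Among those higher in the duodenum, Slc4a7, a sodium bicarbonate importer, was at 1289, 735, 538 and 1098 CPM in the duodenum and 154, 135, 118 and 147 CPM in the ileum (-2.67 ± 0.19 SE, adjusted p = 2.16e-05), and Car9 and Car2, carbonic anhydrases, differed by -2.14 ± 0.14 (SE, adjusted p = 1.48e-05) and -2.99 ± 0.22 (SE, adjusted p = 2.87e-05). On the ileal side, Guca2a encodes guanylin, the peptide that turns on epithelial fluid secretion. It was at 64, 73.4, 84.2 and 50 CPM in the duodenum and 485, 452, 353 and 445 CPM in the ileum (2.67 ± 0.18 SE, adjusted p = 1.9e-05), with no overlap.

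Paneth cell and antimicrobial genes leaned to the ileum at 16 of 22 tested members, with 1 higher in the duodenum (median 1.33). Lyz1, Paneth cell lysozyme, was at 3345, 3918, 3133 and 3368 CPM in the duodenum and 9024, 11535, 5918 and 10243 CPM in the ileum (1.36 ± 0.21 SE, adjusted p = 0.00148). Mmp7, the protease that activates alpha-defensins in mice, differed by 1.39 ± 0.14 (SE, adjusted p = 0.000159). The defensins were called with differences of unequal size. Defa22 was at 12.2, 10.7, 14 and 11.8 CPM and 779, 919, 700.5 and 949 CPM (6.07 ± 0.20 SE, adjusted p = 5.08e-07) and Defa21 differed by 5.88 ± 0.21 (SE, adjusted p = 7.36e-07), while Defa24 was at 1960.5, 2167, 2057 and 1755 CPM and 5148, 5453, 4377 and 5198 CPM (1.32 ± 0.18 SE, adjusted p = 0.000821). These genes are near copies of each other, so reads may be divided among them uncertainly. Ang4, an antimicrobial ribonuclease of Paneth and goblet cells, was at 321, 298, 315 and 210.3 CPM and 2048, 2092, 1713 and 1149 CPM (2.57 ± 0.16 SE, adjusted p = 1.15e-05). Reg3g, a lectin that kills Gram-positive bacteria, differed by 1.44 ± 0.30 (SE, adjusted p = 0.00588), and Reg3b, a related lectin, was not called (0.68 ± 0.29 SE, adjusted p = 0.108). The member higher in the duodenum was Reg3a (-1.99 ± 0.40 SE, adjusted p = 0.0093), with 190.4, 79.9, 120.5 and 493 CPM against 32.3, 58.9, 31.6 and 68 CPM, highest in the libraries with most acinar counts. Its call was lost without NFVCT153 (adjusted p = 0.114) or NFVCT190 (adjusted p = 0.0546).

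Genes of the epithelium known to respond to microbes were called higher in the ileum at 17 of 28 tested members and higher in the duodenum at 4 (median 1.24). Duox2 makes hydrogen peroxide at the epithelial surface, and Duoxa2 is the factor that matures it. Duox2 was at 24.3, 51.7, 34.6 and 20.2 CPM in the duodenum and 1074, 728, 1091 and 421 CPM in the ileum (4.64 ± 0.29 SE, adjusted p = 1.39e-05), and Duoxa2 at 3.95, 6.65, 5.62 and 4.63 CPM and 318, 167, 239 and 92.7 CPM (5.16 ± 0.33 SE, adjusted p = 2.81e-05). The starts of both genes lie 673 bases apart on opposite strands of chromosome 2 in RefSeq (GRCm38.p6), and in the ileum both were highest in NFVCT27 and NFVCT153 and lowest in NFVCT190. Saa1, a serum amyloid, was at 0.672, 0.175, 0.435 and 0.11 CPM and 112, 76.5, 88.7 and 332 CPM (8.29 ± 0.39 SE, adjusted p = 5.22e-06), with the ileum of NFVCT190 far above the other 3 animals. Retnlb, a goblet cell protein induced by microbes and helminths, was at 4.7, 2.86, 5.68 and 1.77 CPM and 115, 83.9, 67 and 33.3 CPM (4.27 ± 0.23 SE, adjusted p = 4.35e-06). Tlr4, the receptor for lipopolysaccharide, differed by 2.37 ± 0.14 (SE, adjusted p = 8.08e-06). Pigr, which carries IgA to the lumen, was higher in the duodenum (-0.86 ± 0.20 SE, adjusted p = 0.0113), a call lost without NFVCT27 (adjusted p = 0.0797) or NFVCT38 (adjusted p = 0.0809). Without NFVCT27, and likewise without NFVCT38, 2 genes were called higher in the duodenum.

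Goblet cell genes leaned to the ileum at 11 of 19 tested members, with 1 higher in the duodenum (median 0.7). Muc2, the gel-forming mucin, was at 793, 575, 1067 and 1366 CPM in the duodenum and 1434, 3130.3, 2387 and 2263 CPM in the ileum (1.26 ± 0.29 SE, adjusted p = 0.00998). Agr2, needed to fold it, was at 274, 391, 288 and 220.4 CPM and 719, 788, 609 and 575 CPM (1.19 ± 0.14 SE, adjusted p = 0.000354), and Clca1, which processes mucus, differed by 1.36 ± 0.22 (SE, adjusted p = 0.00205). Bcas1 (1.07 ± 0.12 SE, adjusted p = 0.000296), Spink4 (1.1 ± 0.15 SE, adjusted p = 0.000663) and Sytl2 (1.13 ± 0.15 SE, adjusted p = 0.000708) were called higher in the ileum too. Fcgbp, a mucus protein, was not called (-0.43 ± 0.20 SE, adjusted p = 0.142), although its regions did not overlap. The member called higher in the duodenum was Klk1 (-1.72 ± 0.46 SE, adjusted p = 0.0286), at 638, 146, 126 and 916 CPM in the duodenum, highest in the libraries with most acinar counts, and its call was lost without NFVCT27, NFVCT153 or NFVCT190 (adjusted p = 0.0866, 0.098 and 0.0848) and without the animal block (adjusted p = 0.0542).

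Genes of Brunner glands and gastric epithelium were higher in the duodenum at each of the 5 members that passed the filter, of 14 on the list. With 29, 28 and 26 ileal counts in all, Gkn3, Muc1 and Pgc passed it through their duodenal libraries. The share among tested members is thus partly set by the filter. With no filter on low counts, 8 of 13 were called higher in the duodenum (median -2.89). Tff2, a trefoil peptide of Brunner glands, was at 285, 35.6, 48.7 and 480.1 CPM in the duodenum and 9.6, 1.89, 1.12 and 12.1 CPM in the ileum (-5.00 ± 0.21 SE, adjusted p = 1.03e-06). Gkn3 was at 8.4, 9.91, 12.1 and 29.8 CPM and 0.234, 0.817, 0.112 and 0.696 CPM (-4.89 ± 0.36 SE, adjusted p = 2.73e-05), and Muc1 and Pgc differed by -4.36 ± 0.53 (SE, adjusted p = 0.000642) and -2.88 ± 0.43 (SE, adjusted p = 0.00132). Tff2 and Muc1 were highest in NFVCT27 and NFVCT190, the libraries with most acinar counts, whereas Gkn3 and Pgc were lowest in NFVCT27. The part of pancreatic RNA in Tff2 and Muc1 was not tested. The gastric markers Muc5ac, Gkn1, Gkn2, Atp4a and Atp4b were too low to be tested.

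Tuft cell genes were called higher in the ileum at 5 of 18 tested members. Sucnr1 and Gnat3, with 14 and 6 duodenal counts in all, passed the filter through their ileal libraries. With no filter on low counts, 5 of 19 were called higher in the ileum and 0 higher in the duodenum. Sucnr1, the succinate receptor by which tuft cells sense microbial products, was at 0.168, 0.292, 0.203 and 0 CPM in the duodenum and 2.81, 4.15, 2.81 and 1.5 CPM in the ileum (3.94 ± 0.41 SE, adjusted p = 0.000196), and Gnat3, the taste G protein, at 0.168, 0.0583, 0.058 and 0.11 CPM and 2.93, 3.14, 1.01 and 2.2 CPM (4.43 ± 0.46 SE, adjusted p = 0.000187). Rgs13 (1.36 ± 0.19 SE, adjusted p = 0.000958) and Dclk1 (0.68 ± 0.12 SE, adjusted p = 0.00283) followed, while Plcg2, which other cells use too, was slightly higher in the duodenum (-0.33 ± 0.11 SE, adjusted p = 0.0398), a call lost without any one of the 4 animals (adjusted p up to 0.143) and without the animal block (adjusted p = 0.0701). Stem and cycling genes had no common direction, with 4 of 21 higher in the ileum and 6 higher in the duodenum. Lgr5, the stem cell receptor, was at 6.3, 6.01, 9.04 and 9.49 CPM and 12.4, 10.9, 18.2 and 19.8 CPM (0.95 ± 0.14 SE, adjusted p = 0.00103). Olfm4, a secreted protein also used as a stem cell marker, went the other way, at 742, 1001, 587 and 905 CPM and 207, 319, 275 and 252 CPM (-1.63 ± 0.17 SE, adjusted p = 0.000214), and the proliferation marker Mki67 was not called (0.24 ± 0.18 SE, adjusted p = 0.353). Of the stem list, 2 were called higher in the ileum without NFVCT27, NFVCT38 or NFVCT153, and 3 higher in the duodenum without NFVCT38. Among villus tip genes, 5 of 15 were higher in the ileum and 3 higher in the duodenum, and Pmp22, a membrane protein of epithelia and myelin, was at 42.7, 19.9, 18.1 and 9.05 CPM and 577, 323, 474 and 591 CPM (4.56 ± 0.38 SE, adjusted p = 0.000165). The villus tip counts were 3 higher in the ileum without NFVCT38 and 7 higher in the duodenum without NFVCT190.

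**Figure D4:**
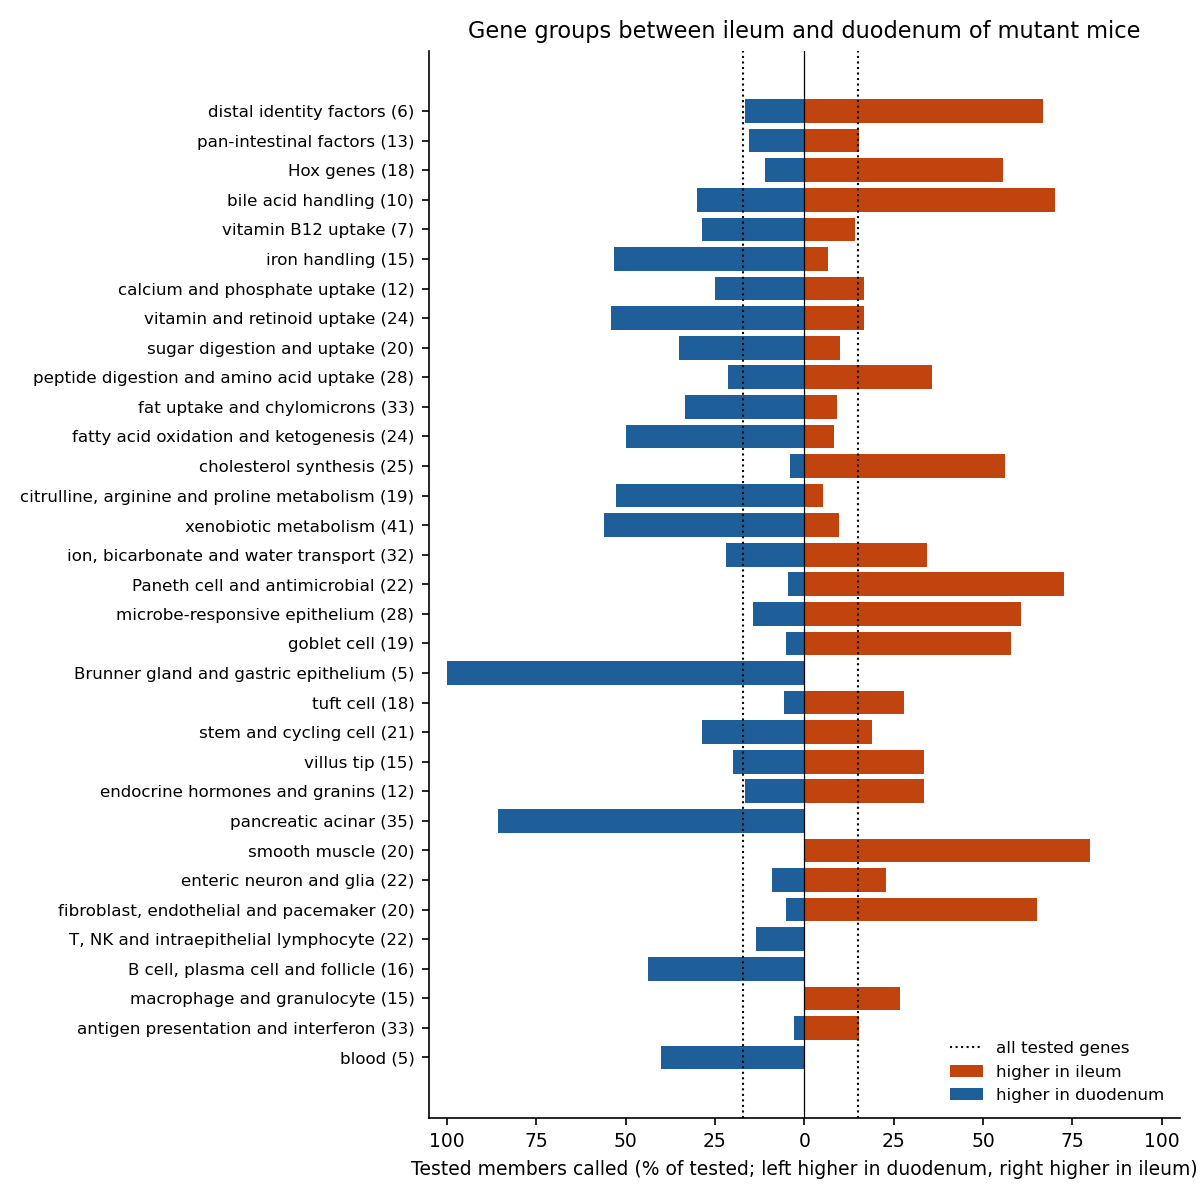
Bars give, for 33 gene groups with 5 or more tested members (number in brackets), the percentage of tested members called higher in the duodenum (left) and higher in the ileum (right) in mutant mice. Dotted lines mark the 17.3% and 15.1% of all tested genes; smooth muscle, Paneth, bile acid and distal factor groups reach furthest to the right, Brunner gland, acinar and xenobiotic groups furthest to the left.

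Genes of cells outside the epithelium also differed between the regions. Smooth muscle genes were called higher in the ileum at 16 of 20 tested members and higher in the duodenum at none (median 1.32). Actg2, the enteric smooth muscle actin, was at 143, 239.9, 216 and 64 CPM in the duodenum and 623, 678, 870.4 and 433 CPM in the ileum (2.07 ± 0.20 SE, adjusted p = 0.000122), and Cnn1, calponin, differed by 1.87 ± 0.15 (SE, adjusted p = 4.68e-05). The duodenal values of both were lowest in NFVCT190, which had most acinar counts, and no duodenal library reached the lowest ileal one. The summed level of the muscle list ran from 1753 to 3833 CPM in the duodenum and from 5852 to 7878 CPM in the ileum. Of the fibroblast, endothelial and pacemaker list 13 of 20 were higher in the ileum and 1 lower (median 0.82). Grem1, a BMP antagonist of muscle-layer fibroblasts, was at 29.8, 42.9, 43.1 and 19.1 CPM and 135, 131, 177 and 139 CPM (2.14 ± 0.19 SE, adjusted p = 6.93e-05), Kit, which marks pacemaker and mast cells, differed by 1.21 ± 0.13 (SE, adjusted p = 0.00023), and Lum, a matrix proteoglycan, by 1.95 ± 0.15 (SE, adjusted p = 3.54e-05). In the list of enteric neurons and glia 5 of 22 were higher in the ileum and 2 higher in the duodenum, among them Vip (-0.78 ± 0.16 SE, adjusted p = 0.0053), the gene of a neuropeptide, on the duodenal side. Without NFVCT27, 3 neuronal and glial genes were called higher in the ileum, and 1 was higher in the duodenum without NFVCT27, NFVCT38 or NFVCT153. The stromal gene called lower was not called without any one of those 3 animals.

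Pancreatic acinar genes were called higher in the duodenum at 30 of 35 tested members and at none in the ileum (median -5.18). Pnlip, pancreatic lipase, was at 23929, 2979.7, 4138 and 40858 CPM in the duodenum and 793, 109.7, 76.5 and 933 CPM in the ileum (-5.24 ± 0.29 SE, adjusted p = 4.35e-06). Levels varied widely among the duodenal libraries, with NFVCT27 and NFVCT190 high, and the ileal libraries of the same animals were also the higher ones. Without the pancreatic lists in the table, 4812 genes were called in place of 4839. Of 3 tested islet genes Ins2 was called higher in the duodenum. Without NFVCT38 or NFVCT190 Ins2 was too low to be tested, and none of the 2 islet genes tested there was called. Without NFVCT153 4 of 6 were called.

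Immune genes were described by 4 lists. B and plasma cell genes were higher in the duodenum at 7 of 16 tested members and in the ileum at none (median -0.52). Igha, the constant region of IgA, was at 11790.3, 14397, 13111 and 6525 CPM in the duodenum and 6029, 5846, 4681 and 4459 CPM in the ileum (-1.1 ± 0.23 SE, adjusted p = 0.00633), a call lost without NFVCT38 (adjusted p = 0.0554). Cd79a, of the B cell receptor, differed by -1.73 ± 0.21 (SE, adjusted p = 0.000392) and Mzb1, of plasma cells, by -1.48 ± 0.27 (SE, adjusted p = 0.0033), while Ms4a1, a surface protein of B cells, was too low to be tested. The B cell count was 4 without NFVCT27 and 4 without NFVCT38, and 1 gene was called higher in the ileum without NFVCT153 or NFVCT190. Among T, NK and intraepithelial lymphocyte genes 3 of 22 were called higher in the duodenum, a share below the 17.3% of all tested genes. The median was -0.56, and 1 of the 22 log2 differences was above 0. Of the called genes Ccl5, a chemokine of cytotoxic cells, was at 13.5, 8.75, 8.2 and 3.86 CPM and 7.37, 1.26, 2.47 and 2.84 CPM (-1.44 ± 0.34 SE, adjusted p = 0.0122). Ccl5 was not called without the animal block (adjusted p = 0.0807). The list had 1 call without NFVCT38, and 8 of 21 were called higher in the duodenum without NFVCT27 and NFVCT190 together (median -1.1). Of 15 macrophage and granulocyte genes 4 were higher in the ileum, with Mrc1, the mannose receptor, at 0.90 ± 0.12 (SE, adjusted p = 0.000826) and the chemokine Ccl6 at 0.94 ± 0.15 (SE, adjusted p = 0.00191). The macrophage count was 2 without NFVCT27 and 2 without NFVCT190, when 1 gene was called higher in the duodenum. In the list of antigen presentation and interferon genes 5 of 33 were higher in the ileum and 1 in the duodenum, against 15.1% and 17.3% of all tested genes. That split turned with the animals used, to 4 and 6 without NFVCT190 to 2 and 0 without NFVCT27, to 3 and 0 without NFVCT38 and to 1 and 6 without NFVCT27 and NFVCT190. Ubd, an interferon-induced ubiquitin-like protein, was at 1.51, 0.7, 1.39 and 0.331 CPM and 5.97, 2.7, 4.61 and 8.52 CPM (2.30 ± 0.39 SE, adjusted p = 0.00233), whereas Cd74, of the MHC class II pathway, was not called (0.00 ± 0.29 SE, adjusted p = 0.995). Of 5 blood genes 2 were called higher in the duodenum, 1 without NFVCT38 and 5 without NFVCT190.

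Endocrine genes measured in the mutants were few and mostly low. Of 25 hormone and granin genes, 12 passed the filter, 4 were called higher in the ileum and 2 higher in the duodenum. Pcsk1, a prohormone convertase, was at 10, 9.44, 14.3 and 7.39 CPM in the duodenum and 33.5, 38.8, 50 and 44.5 CPM in the ileum (2.01 ± 0.16 SE, adjusted p = 3.87e-05). Tac1, which encodes substance P and is also made by enteric neurons, was at 0.672, 1.11, 0.927 and 0.441 CPM and 2.34, 4.34, 4.72 and 4.34 CPM (2.26 ± 0.29 SE, adjusted p = 0.000621). Both were higher in the ileum of every animal. Scg5, a chaperone of the related convertase Pcsk2 (1.4 ± 0.36 SE, adjusted p = 0.0169), lost its call without NFVCT153 (adjusted p = 0.0509), and Sct, secretin (0.89 ± 0.26 SE, adjusted p = 0.0286), lost it without NFVCT27, NFVCT38 or NFVCT190 (adjusted p = 0.126, 0.106 and 0.0799). Pcsk1n, an inhibitor of Pcsk1, was higher in the duodenum (-1.5 ± 0.26 SE, adjusted p = 0.00277), and Sst, somatostatin, was not called (-0.47 ± 0.21 SE, adjusted p = 0.125). Chgb, Scg2, Scg3, Cpe and Pcsk2 did not pass the test either. Gip, Cck and Ghrl, hormones of the proximal gut, had 11, 19 and 9 counts in the 4 duodenal libraries and 0, 1 and 1 in the ileal ones. Nts, neurotensin of the distal gut, had 3 duodenal and 20 ileal counts. Of 3 tested factors of the endocrine lineage 2 were called higher in the ileum, 0 without NFVCT27 and 1 without NFVCT38 or NFVCT153.

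The pieces of duodenum also held RNA of the islet hormone insulin, and 3 endocrine genes, chosen after their values were seen, are given beside it. Ins2 was at 15.1, 21, 0.116 and 50.2 CPM in the duodenum and 0.234, 0.189, 0 and 0.696 CPM in the ileum. Gcg, which encodes glucagon and GLP-1, was at 0.084, 2.22, 0 and 2.54 CPM in the duodenum and 0, 0, 0 and 0.0536 CPM in the ileum, and Pyy, of ileal and islet endocrine cells, at 0.588, 1.63, 0.029 and 2.21 CPM and 0, 0, 0 and 0 CPM. Chga, a granin of all endocrine cells, was at 4.79, 7.81, 1.42 and 14.1 CPM and 2.81, 2.14, 1.57 and 1.77 CPM (-1.60 ± 0.46 SE, adjusted p = 0.0318), a call lost without NFVCT38 (adjusted p = 0.123) or NFVCT190 (adjusted p = 0.0696) and without the animal block (adjusted p = 0.0687). All 4 genes were lowest in the duodenum of NFVCT153 and highest in that of NFVCT190. Ghrl shared this order on few counts, with 1, 2, 0 and 6 in the duodenum. Gip, Cck and Sst did not. The duodenal values of Gip (0.084, 0.0583, 0.261 and 0 CPM) and Cck (0, 0.175, 0.464 and 0 CPM) were highest in NFVCT153, and those of Sst (5.46, 6.47, 4.78 and 5.96 CPM) lay close together. The part of islet RNA in Gcg, Pyy and Chga was not tested.

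The same comparison in the controls called 5897 of 14976 tested genes (39.4%), 2770 (18.5%) higher in the ileum and 3127 (20.9%) higher in the duodenum, and 3669 without NF17. Over 14629 genes tested in both genotypes, 4767 were called in the mutants and 5787 in the controls, and 3827 were called in both in the same direction. That is 80.3% of the mutant calls and 66.1% of the control calls, and 10 genes were called in opposite directions. Across genes the log2 differences of the genotypes had a Pearson r of 0.915, a description over genes that are not independent. Several regional genes named above had similar log2 differences in the controls. Fabp6 differed by 13.64 ± 0.31 (SE, adjusted p = 3.7e-08) in the controls, Slc10a2 by 9.58 ± 0.22 (SE, adjusted p = 3.7e-08), Pdx1 by -5.15 ± 0.31 (SE, adjusted p = 6.5e-05) and Gata4 by -3.23 ± 0.19 (SE, adjusted p = 2.39e-05). The test of the difference between the genotypes gave adjusted p of 0.994, 0.994, 0.994 and 0.996 for these 4 genes. It compares regional differences and not the level within a region. Before scaling to depth, Fabp6 had 222706 ileal and 12 duodenal counts in the controls, and 37818 and 6 in the mutants.

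**Figure D5:**
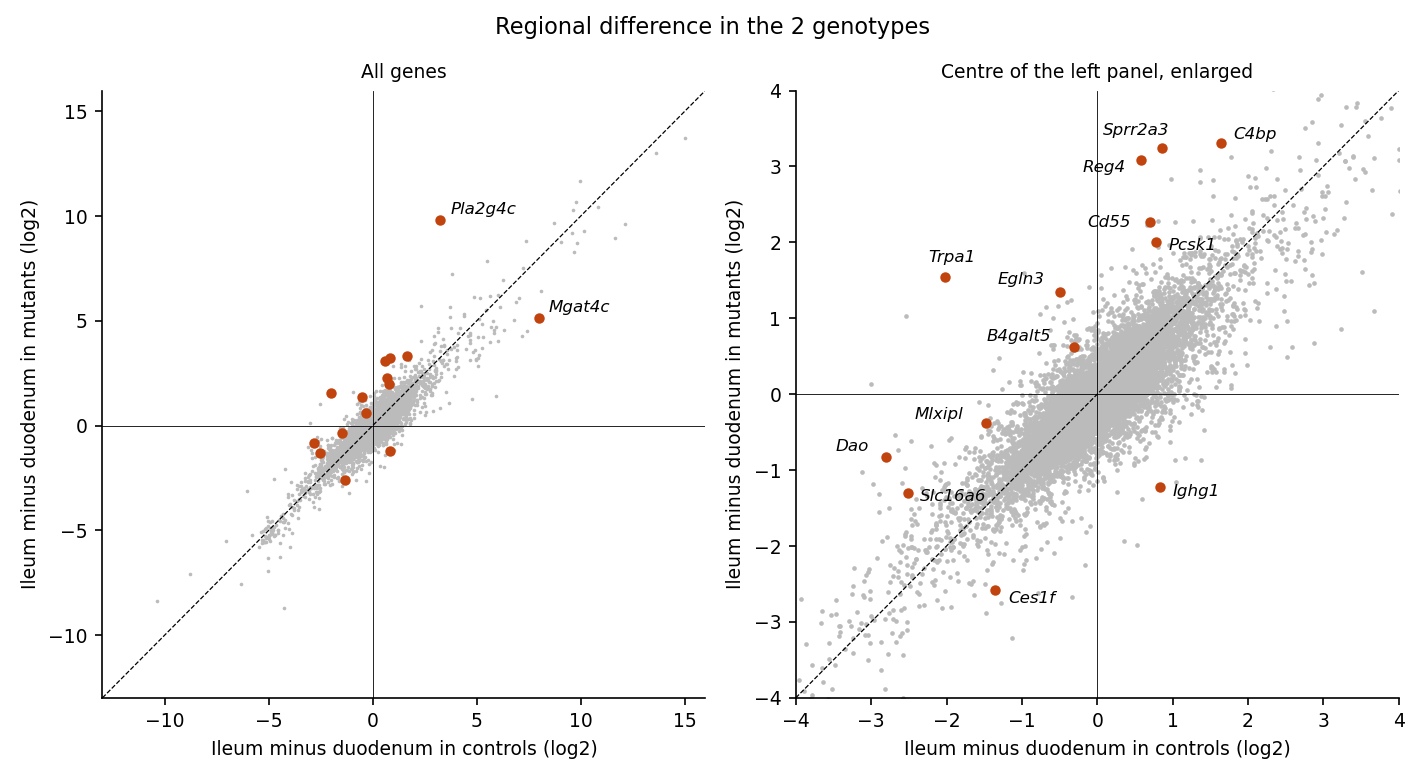
Each point is 1 of 14629 genes tested in both genotypes, with its log2 difference, ileum minus duodenum, in controls on the horizontal and in mutants on the vertical axis, and the right panel enlarges the centre. Coloured points are 15 of the 16 genes whose regional difference was called different between the genotypes, Gcg being too low to be tested in the mutants, and the dashed line marks equal differences.

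The test of the difference itself, mutant regional difference minus control regional difference, called 16 of 15882 genes (0.101%), 12 above the controls (0.0756%) and 4 below (0.0252%). Of the 15882 genes, 844 had an unadjusted p under 0.05 in this test, a threshold that a share of about 0.05 would pass if no gene differed. The count of called genes was 7 without the animal block, 72 with DESeq2, 7 without NF17 or NFVCT27 and 6 without NF32 or NFVCT38. Gcg headed the list. In controls it was higher in the ileum, 65.8 ± 11.4 CPM against 10.7 ± 1.2 CPM in the duodenum (SD, n = 4), and in the mutants it had 1 count in the ileum and 62 in the duodenum (adjusted p = 2.97e-05 for the difference). Gcg was not called without the animal block or with limma-voom (adjusted p = 0.288 and 0.101). Pla2g4c was higher in the ileum in both genotypes. In the mutants its log2 difference was 9.83, and in the controls, at 2.82 ± 2.22 CPM in the duodenum and 25.1 ± 13 CPM in the ileum, it was 3.25 ± 0.23 (SE, adjusted p = 2.26e-05). The difference between the genotypes was 6.58 ± 0.55 (SE, adjusted p = 0.00163). Trpa1, an irritant channel of enterochromaffin cells, was higher in the duodenum of controls (-2.03 ± 0.20 SE, adjusted p = 0.000118) and higher in the ileum of mutants (1.55 ± 0.34 SE, adjusted p = 0.00889), with 1.6, 0.7, 0.724 and 0.441 CPM in the mutant duodenum and 3.63, 2.33, 1.46 and 3 CPM in the mutant ileum (difference 3.59 ± 0.38 SE, adjusted p = 0.00203). Cd55, an inhibitor of complement, was at 46.4, 32.8, 40.8 and 22.2 CPM and 199.6, 196, 168 and 119 CPM in the mutants and differed by 0.70 ± 0.13 (SE, adjusted p = 0.00356) in the controls (difference 1.59 ± 0.19 SE, adjusted p = 0.00801). These 4 genes were called in each of the 8 fits that left out 1 animal, with adjusted p up to 0.00385, 0.0173, 0.0166 and 0.0391.

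The other 12 genes lost their call in at least 2 of those 8 fits. A wider gap in the mutants, in the ileum's favour, was measured for Reg4, a lectin of secretory cells, at 45.1, 47.7, 48.1 and 32.2 CPM in the duodenum and 442, 451, 397 and 234 CPM in the ileum (3.09 ± 0.14 SE, adjusted p = 1.45e-06, against 0.59 ± 0.28 SE, adjusted p = 0.156 in controls, difference 2.53 ± 0.32 SE, adjusted p = 0.0116). Sprr2a3, a cornified envelope protein with near copies, gave a difference of 2.41 ± 0.34 (SE, adjusted p = 0.0252), C4bp, a complement inhibitor, one of 1.68 ± 0.24 (SE, adjusted p = 0.0123), and Pcsk1 one of 1.26 ± 0.19 (SE, adjusted p = 0.022). Egln3, an oxygen-sensing hydroxylase, was at 1.35 in mutants and -0.50 in controls (difference 1.87 ± 0.25 SE, adjusted p = 0.0116), and B4galt5, a galactosyltransferase, at 0.62 and -0.31 (difference 0.95 ± 0.15 SE, adjusted p = 0.0318). A narrower gap in the duodenum's favour was measured for Dao, which breaks down D-amino acids (-0.83 against -2.81 in controls, difference 2.01 ± 0.27 SE, adjusted p = 0.0116), Slc16a6, a transporter of ketone bodies (-1.30 against -2.52, difference 1.24 ± 0.17 SE, adjusted p = 0.0116), and Mlxipl, the carbohydrate-responsive factor ChREBP (-0.38 against -1.48, difference 1.13 ± 0.18 SE, adjusted p = 0.0374). Mgat4c, a glycosyltransferase, was at 16.6, 19.2, 21.8 and 13.9 CPM and 661, 673, 543 and 689 CPM in the mutants, a smaller gap than in controls (5.14 against 7.98, difference -2.81 ± 0.36 SE, adjusted p = 0.0116). Ces1f leaned further to the duodenum in the mutants (-2.58 against -1.35, difference -1.21 ± 0.16 SE, adjusted p = 0.0109), and Ighg1, an immunoglobulin heavy chain gene, was at -1.23 against 0.83 (difference -2.05 ± 0.30 SE, adjusted p = 0.02). The highest adjusted p over the 8 fits was 0.0636 for Reg4, 0.137 for Sprr2a3, 0.0998 for C4bp, 0.119 for Pcsk1, 0.0645 for Egln3 and 0.175 for B4galt5. It was 0.0655 for Dao, 0.0659 for Slc16a6, 0.203 for Mlxipl, 0.0636 for Mgat4c, 0.0636 for Ces1f and 0.175 for Ighg1. Because mutants differ from controls by Cre as well as by Neurog3, and the labels do not give tamoxifen separately for controls, these causes of a difference between the genotypes cannot be told apart.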

How the data were processed

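Total RNA of duodenum and ileum was sequenced from 4 mutant and 4 control mice, giving 16 libraries. Per the labels' protocols, libraries were stranded, depleted of ribosomal RNA and amplified by PCR. Per the submitters' processing notes, whose order and roles are not recorded, the tools included STAR 2.5.3a, HTSeq 0.6.1p1 and Bowtie2 2.2.8 besides cutadapt 1.10 and bcl2fastq 2.20.0.422, and the build was mm39. For the annotation and the strand setting used in counting, the release and setting were not given in the sources used here, so overlapping and antisense genes are uncertain.

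The authors deposited raw counts per Ensembl gene for 55359 genes, with no rows of unassigned reads. Symbols were matched by Ensembl identifier, and 52083 identifiers with 98.3% of all counts had one. Where a symbol was shared, in 68 cases, the identifier with more counts kept it.

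Counts were fitted in R 4.3.3 with edgeR 4.0.16 (quasi-likelihood test, TMM factors, filterByExpr, the animal as a block), with Benjamini-Hochberg adjustment of the p-values across every tested gene. The mutant and control comparisons were fitted on 8 libraries each, and the difference between the genotypes on all 16. The animal number pairs the tissues because both came from 1 mouse. The correlation of an animal's own tissues, after removal of the tissue means, was 0.386, 0.45, 0.147 and 0.21 for NFVCT27, NFVCT38, NFVCT153 and NFVCT190, against at most 0.077 with another animal. Removing the means lowers the values with other animals by construction, so they are not an independent benchmark. The replicate is the mouse. Fitting was tested on simulated data. CPM values use TMM factors of the 16 libraries. Depth ran from 8213889 to 35076714 counts, and intervals cover counting error only. Alternatives used no block, RLE factors, DESeq2 1.42.0, limma-voom (limma 3.58.1), other filters and thresholds, no pancreatic lists and fewer animals.

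The comparison, the gene lists and the rule for naming genes were chosen with earlier results of these data known. The rule named the 10 largest differences each way whose groups did not overlap and whose mean was at least 5 CPM, and up to 4 called members with the smallest p and 2 with the highest level per list. It also named every factor, bile acid and hormone gene of its lists and the 10 genes with the smallest p for the difference between genotypes. Not every gene of the rule is printed, some of them are not reported here, and other list members and difference genes were added for their roles after their values were seen. Promoter sequences come from RefSeq (GRCm38.p6), not from the build of the counts, which bears on sequence only.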

Additional observations from a re-analysis of the deposited data

Results flagged for a closer look

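Regional differences that passed the test between mutants and controls were flagged for 16 genes, given as the mutant minus the control log2 difference. Those above 0 were Pla2g4c (6.58), Trpa1 (3.59), Reg4 (2.53), Sprr2a3 (2.41), Dao (2.01), Egln3 (1.87), C4bp (1.68), Cd55 (1.59), Pcsk1 (1.26), Slc16a6 (1.24), Mlxipl (1.13) and B4galt5 (0.95). Those below 0 were Gcg (-8.51), Mgat4c (-2.81), Ighg1 (-2.05) and Ces1f (-1.21). The value of Gcg depends on the prior count, since the mutant ileum held 1 count.

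A single mutant library stood apart from the other 3 of its region in 19 of 396 groups checked by Dixon's test, which flags about 1 group in 20 by chance. In NFVCT27 the duodenal values of Gata6 (128 CPM), Arg2 (601 CPM) and Ighg1 (6.13 CPM) were high, the duodenal value of Kit (13.7 CPM) was low and the ileal value of Tac1 (2.34 CPM) was low. In NFVCT38 the duodenal values of Slc6a14 (0.117 CPM) and Hoxb9 (0.175 CPM) were high, that of Anpep (1135 CPM) was low, and the ileal values of Cyp2c65 (64.8 CPM) and Rgs13 (23.1 CPM) were high. NFVCT153 had a high duodenal value of Gsdmc3 (0.174 CPM), low ileal values of Slc10a2 (919 CPM) and Slc23a2 (48 CPM) and high ileal values of Sqle (299 CPM) and Grem1 (177 CPM). NFVCT190 had a high duodenal value of Cdx1 (77.7 CPM), low duodenal values of Pigr (5987 CPM) and Cpe (25.5 CPM) and a high ileal value of Saa1 (332 CPM). The values of Slc6a14, Hoxb9 and Gsdmc3 rest on few counts.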

How the results depend on the processing

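Genes called between the mutant regions numbered 4833 without the replicate block that pairs the tissues of an animal, 4850 with RLE factors, 4696 with DESeq2, 4958 with limma-voom, 5546 with no filter on low counts, 4776 with a stricter filter and 4812 without the pancreatic lists, against 4839. They numbered 2975 (1414 higher in the ileum, 1561 in the duodenum) without NFVCT27 and NFVCT190, 2703 (1267 and 1436) at an adjusted p under 0.01, and 612 (296 and 316) against a log2 fold change of 1. Leaving out 1 animal gave 2886 to 4793 (1309 to 2273 in the ileum, 1577 to 2520 in the duodenum). Of 211 genes of the naming rule or the text that were called in the mutants, 176 were called in each such fit that tested them and 0 changed sign.

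Control calls numbered 5372 without the block and 3669 to 5941 without 1 animal (1600 to 2717 in the ileum, 2069 to 3224 in the duodenum). The 16 genes of the difference between the genotypes (12 above, 4 below the controls) were 7 (6 and 1) without the block, 72 (46 and 26) with DESeq2, 15 with limma-voom (2 below), 230 (116 and 114) with no filter, 4 (3 and 1) at 0.01, 3 (2 and 1) against a log2 fold change of 1, and 6 to 22 (4 to 12 above, 1 to 10 below) without 1 animal. The cause of these changes was not tested, apart from the stricter thresholds and fewer animals by construction. Depth limits low genes, since a gene under 3 counts in a library cannot be told from 0.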
